A study of Mus musculus with 9 samples.

Results

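The amino acid transporters described here are 8 genes: Slc7a5, Slc3a2, Slc7a1, Slc38a2, Slc38a3, Slc38a5, Slc6a6 and Slc1a4. They were chosen by name as carriers of the blood-brain barrier, and all 8 were found among the 23420 genes of the deposited matrix and among the 13317 genes that were tested. The libraries came from brain endothelial cells of 3 groups of C57BL/6 mice aged 6 months: APP/PS1xRIPK1KD mice, APP/PS1 mice and WT mice, with 3 mice in each genotype and 1 library per mouse. The genotype name APP/PS1 stands for an amyloid model of Alzheimer's disease that carries APP and presenilin transgenes, and RIPK1 is a kinase of inflammatory and cell death signalling. The labels do not spell out KD, the promoters that drive the transgenes are not given in the sources used here, and every mouse was labelled male. From each brain 20000 cells that stained for CD31 and not for CD45 were sorted, and their polyadenylated RNA was copied by Smart-seq2 and sequenced.

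Endothelial cells of the brain are sealed by tight junctions, so polar nutrients such as amino acids enter the brain through carriers in the endothelial membranes. Slc7a5 encodes LAT1, the light chain of an exchanger of large neutral amino acids that also carries L-DOPA, and Slc3a2 encodes the CD98 heavy chain that brings LAT1 and several related light chains to the surface. Slc7a1 encodes CAT1, a carrier of arginine and lysine. Slc38a2, Slc38a3 and Slc38a5 encode the sodium-coupled carriers SNAT2, SNAT3 and SNAT5. SNAT2 takes up small neutral amino acids and is induced when cells lack amino acids, whereas SNAT3 and SNAT5 carry glutamine, asparagine and histidine. Slc6a6 encodes TauT, the sodium-dependent taurine carrier, and Slc1a4 encodes ASCT1, an exchanger of serine, alanine and other small neutral amino acids.

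Across the 3 genotypes the main carriers of the barrier were abundant and their levels overlapped. In none of the 3 comparisons did any of the 8 genes pass a false discovery rate (FDR) of 0.05 in edgeR's quasi-likelihood test. The low-abundance Slc1a4 stood apart from the other 7: its level in each of the 6 APP/PS1xRIPK1KD and APP/PS1 libraries was above that of the 3 WT libraries, and its APP/PS1 against WT difference was called by DESeq2 and in the authors' deposited table but not by the quasi-likelihood test. After scaling, Slc38a2 was lower in all 3 APP/PS1xRIPK1KD libraries than in the other 6 libraries, by a narrow margin and short of the threshold.

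Totals per library ranged between 16263792 expected counts in APP/PS1 replicate 1 and 52413200 in APP/PS1 replicate 3. Rn45s, the ribosomal RNA precursor, took 15.8% to 33.8% of them. The libraries went against their sex labels: replicates 1 and 2 of every genotype had 264 to 534 CPM, counts scaled to a common library size, of Xist and at most 0.434 CPM over the Y-linked genes listed, whereas the replicate 3 libraries had at most 4.78 CPM of Xist and 150 to 185 CPM of Y-linked RNA. Each genotype therefore held 2 libraries of one kind and 1 of the other, and results for replicates 1 and 2 alone stand beside several of the comparisons. Endothelial markers were present at similar summed levels, 20746 to 23371 CPM in APP/PS1xRIPK1KD, 20462 to 24847 CPM in APP/PS1 and 22367 to 25190 CPM in WT libraries. Slc2a1, with a mean of 7641 CPM, led these sums of 12 genes. In APP/PS1 against WT 11 of the 12 had a log2 fold change below 0, with a median of -0.08. There 0 of them had an unadjusted p under 0.05, beside 6.14% of all genes. In APP/PS1xRIPK1KD against WT 5 of the 12 were below 0. Ripk1 itself averaged 37.3 ± 6.91 CPM in APP/PS1xRIPK1KD, 56.3 ± 17.5 CPM in APP/PS1 and 42.7 ± 6.89 CPM in WT libraries (SD, n = 3 each), which does not check the labels because they do not say that its RNA was lowered.

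The genes lie on 8 different chromosomes of the GRCm38 build, as annotated by GENCODE: Slc7a5 at chr8:121881150-121907694, Slc3a2 at chr19:8706882-8723369, Slc7a1 at chr5:148327410-148399904, Slc38a2 at chr15:96687392-96699730, Slc38a3 at chr9:107650634-107669530, Slc38a5 at chrX:8271133-8280179, Slc6a6 at chr6:91684053-91759066 and Slc1a4 at chr11:20302180-20332713. Slc38a5 and Slc6a6 are on the plus strand and the others on the minus strand. No exon of the 8 overlaps an exon of another annotated gene. Several amino acid carriers are known to be induced through ATF4, which binds C/EBP-ATF response elements of the form TGATGNAAN. RefSeq promoter windows of the GRCm38.p6 assembly, which run 250 bases before to 50 bases after a start site, were at hand for 5 of the 8 genes (6 windows, those of Slc3a2, Slc7a1, Slc38a2, Slc38a5 and Slc1a4). The motif TGATGNAAN, searched on both strands, was present in the window of Slc1a4 and in none of the other 5 windows, and 3.954% of all 32851 windows held it. The match in Slc1a4 lies on the strand opposite to transcription and begins 5 bases before the start site. The windows of Slc1a4 (chr11:20332704-20332963, minus strand) and Slc38a2 (chr15:96699719-96699978, minus strand) are shown up to 10 bases past the start site because these were the members whose libraries did not overlap between genotypes; capitals mark the motif.
Slc1a4: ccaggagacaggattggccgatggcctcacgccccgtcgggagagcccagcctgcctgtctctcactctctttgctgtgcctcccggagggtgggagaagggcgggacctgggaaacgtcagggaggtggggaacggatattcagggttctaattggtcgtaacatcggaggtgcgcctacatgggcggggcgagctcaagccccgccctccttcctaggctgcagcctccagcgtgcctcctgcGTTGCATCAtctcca
Slc38a2: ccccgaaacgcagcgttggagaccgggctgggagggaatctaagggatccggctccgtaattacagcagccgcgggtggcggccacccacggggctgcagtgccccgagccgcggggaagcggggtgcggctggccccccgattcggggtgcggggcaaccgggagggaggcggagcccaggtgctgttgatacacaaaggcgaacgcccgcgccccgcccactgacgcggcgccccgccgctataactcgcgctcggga
Such a match describes letters only. The element through which SNAT2 is known to respond to amino acids was mapped to the first intron of the human gene, outside this window.

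Set per kilobase of exon, the 8 genes spanned more than 2 orders of magnitude in level. The mean over the 9 libraries was 286 CPM per kilobase for Slc6a6, 252 for Slc3a2, 124 for Slc7a5, 106 for Slc38a5, 91.9 for Slc38a3, 22.6 for Slc38a2, 22.4 for Slc7a1 and 0.507 for Slc1a4. In this order 3 steps separated every library of the upper gene from every library of the lower one: Slc3a2 over Slc7a5, Slc38a3 over Slc38a2, and Slc7a1 over Slc1a4. The other neighbours overlapped, and Slc38a2 exceeded Slc7a1 in 6 of 9 libraries only. The taurine carrier and the CD98 heavy chain thus led the group, and they made up 31.8% and 27.7% of the summed level of the 8 genes. In CPM, Slc6a6 stood above 99.8% of the tested genes and Slc1a4 above 18.4%.

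The order was much the same within each genotype. Slc6a6 reached 310 ± 22.9 CPM per kilobase in APP/PS1xRIPK1KD, 286 ± 52.8 in APP/PS1 and 263 ± 31.1 in WT libraries (SD, n = 3 each), and Slc3a2 reached 247 ± 21.2, 233 ± 15 and 275 ± 44.5 in the same genotypes, so that the taurine carrier led in both APP/PS1-bearing genotypes and the heavy chain in WT, with overlapping libraries. The system N carriers also stood in a different order in different genotypes, again with overlapping libraries. Slc38a3 had 99.98 ± 21.4 CPM per kilobase in APP/PS1xRIPK1KD libraries and Slc38a5 had 85.2 ± 15.4, whereas in WT libraries Slc38a3 had 99.9 ± 27.2 and Slc38a5 had 133 ± 59.1. The 8 genes summed to 909 ± 77.9 CPM per kilobase in APP/PS1xRIPK1KD, 857 ± 30.1 in APP/PS1 and 950 ± 77.1 in WT libraries. The single sums overlapped: they were 922, 979 and 825 in APP/PS1xRIPK1KD, 863, 825 and 884 in APP/PS1, and 873, 1027 and 952 in WT libraries.

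Most of the amino acid carrier RNA of these cells came from the 8 genes. Together they held 89.1% of the summed level per kilobase of all 54 carriers listed, with a range of 86.4% to 91.7% over the libraries. The highest of the other 46 was Slc1a1, which encodes the glutamate and aspartate carrier EAAT3, at 57.5 CPM per kilobase, a level between those of Slc38a3 and Slc38a2. It was followed by Slc38a10 at 15.8, by Slc7a7, another light chain that pairs with Slc3a2, at 6.41, by Slc38a7 at 5.10, and by Slc1a5, which encodes the close relative of ASCT1 named ASCT2, at 4.25 CPM per kilobase. Slc1a5 was thus more abundant in these libraries than Slc1a4.

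**Figure D1:**
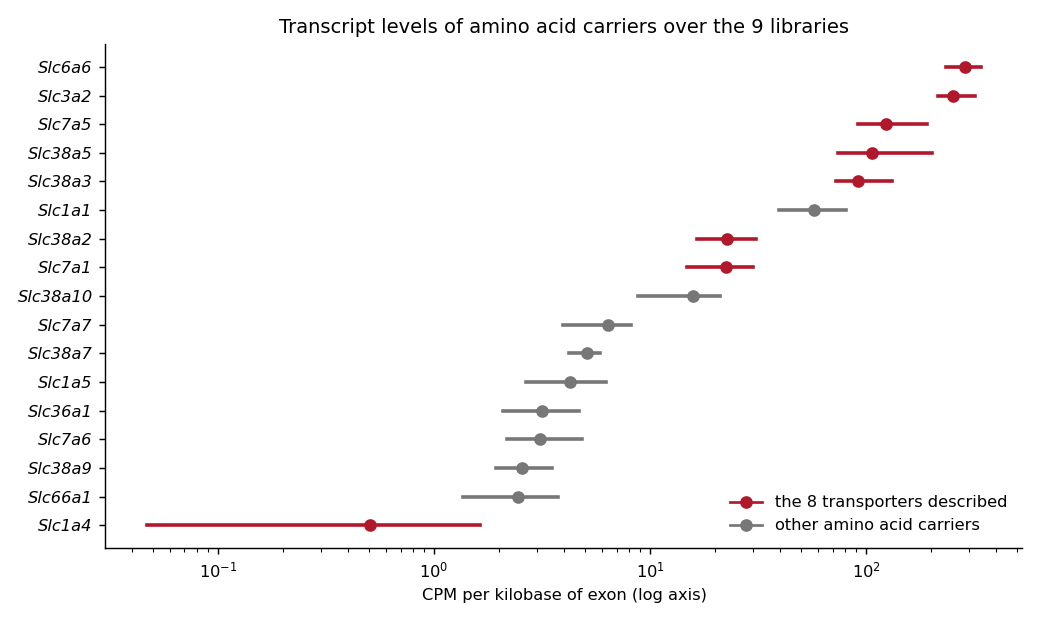
Levels of amino acid carriers in CPM per kilobase of exon on a log axis. Points are means over the 9 libraries and lines run between the lowest and the highest library. The 16 highest carriers are drawn, with Slc1a4 below them. The carriers ranked between Slc66a1 and Slc1a4, and those ranked below Slc1a4, are left out. The 5 highest means are those of Slc6a6, Slc3a2, Slc7a5, Slc38a5 and Slc38a3. Slc1a4, at rank 25, lies lowest of the carriers drawn, at 0.507.

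The first comparison, APP/PS1 against WT, asks how the endothelium of the amyloid model differs from that of WT mice. By the quasi-likelihood test 0 of the 8 genes passed FDR 0.05, as did 0.0225% of all genes tested (3 genes). At an unadjusted p of 0.05, 1 of the 8 passed, Slc1a4, against 6.14% of all genes. Slc1a4 was also the 1 member whose libraries did not overlap between these genotypes, which held for 10.9% of all genes. The median log2 fold change was -0.10 over the 8 genes and 0.0019 over all genes, with 4 members above 0 and 4 below.

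Slc1a4 was detected at low counts. It had 50, 76 and 321 counts in the APP/PS1 libraries, against 20, 7 and 18 counts in the WT libraries, or 3.15, 1.42 and 6.38 CPM against 0.590, 0.185 and 0.385 CPM. Every APP/PS1 library was above every WT library, and APP/PS1 replicate 3 was more than the other 2 APP/PS1 libraries together. The log2 fold change was 3.23 ± 0.81 (SE), a 9.40-fold difference with a 95% interval of 1.47 to 4.99 on the log2 scale, and the adjusted p was 0.707 in edgeR's quasi-likelihood test (unadjusted p = 0.0017). DESeq2 gave a log2 fold change of 3.25 with an adjusted p of 0.0153, in a comparison in which it called 0.34% of all genes (45). In the authors' deposited table, which holds this comparison, Slc1a4 had a log2 fold change of 3.29 and an FDR of 0.0361 and ranked 21 by p among 12460 genes, 26 of which (0.209%) passed 0.05. The adjusted p was 0.0814 in edgeR's exact test, which called 0.345% of all genes, 0.0637 in its likelihood ratio test on the 6 libraries, which called 0.392%, and 0.803 in limma-voom.

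Single libraries decided the DESeq2 call, by fits added after that call was seen. The DESeq2 adjusted p was 0.163 without APP/PS1 replicate 3, 0.128 without WT replicate 2 and 0.0539 without APP/PS1 replicate 1, and it lay between 0.00334 and 0.047 without each of the other 3 libraries. With replicates 1 and 2 only it was 0.208. The direction held in every one of these fits: the DESeq2 log2 fold change was 2.56 without APP/PS1 replicate 3, and the quasi-likelihood value stayed between 2.55 and 3.66 when each of the 9 libraries was left out. The intervals and tests cover these libraries as counted; PCR copies were not marked by molecular identifiers, so counting error is understated.

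The summed mural and the summed fibroblast markers, like Slc1a4, were higher in every APP/PS1xRIPK1KD and APP/PS1 library than in the WT libraries. The 14 mural cell markers summed to 69.9 to 264 CPM in APP/PS1xRIPK1KD, 190 to 244 CPM in APP/PS1 and 13.2 to 60.5 CPM in WT libraries. Of the 14, 2 passed FDR 0.05 in APP/PS1 against WT, each higher, beside 0.0225% of all genes. In APP/PS1xRIPK1KD against WT 1 of the 14 passed, also higher, beside 0.0375% of all genes. Taken singly, 13 of the 14 had APP/PS1 libraries wholly above WT, and 8 had APP/PS1xRIPK1KD libraries wholly above WT. Of all genes, 10.9% and 12% did not overlap in either direction in these comparisons. The 7 fibroblast markers summed to 2.06 to 7.26, 6.82 to 13.4 and 0.132 to 1.24 CPM in the 3 genotypes, with Lum and Dpt at 0 in every library. Of the 4 fibroblast markers tested, 1 had APP/PS1 libraries wholly above WT, and 0 had APP/PS1xRIPK1KD libraries wholly above WT, beside the same shares of all genes. Summed, the 10 astrocyte markers overlapped, at 139 to 152 CPM in APP/PS1xRIPK1KD, 132 to 190 CPM in APP/PS1 and 109 to 189 CPM in WT libraries, but Fgfr3, with a mean of 77.0 CPM, led that sum. Of the 8 astrocyte markers tested, 7 had a log2 fold change above 0 in APP/PS1 against WT, with a median of 1.54. In this comparison 4 had APP/PS1 libraries wholly above the WT libraries, where 10.9% of all genes did not overlap in either direction. An unadjusted p under 0.05 was reached by 3, beside 6.14% of all genes. By the quasi-likelihood test 0 passed FDR 0.05, beside 0.0225% of all genes, and DESeq2 called 2, beside 0.34%. In APP/PS1xRIPK1KD against WT, 5 of the 8 were above 0, beside 50.6% of all genes. There 2 had an unadjusted p under 0.05, beside 6.18% of all genes, and the median was 0.62. The connexin gene Gjb6 had 0 to 0.577 CPM in APP/PS1xRIPK1KD and 0.378 to 1.94 CPM in APP/PS1 libraries and was at 0 in all 3 WT libraries. The glutamate carriers Slc1a2 and Slc1a3 averaged 1.78 ± 1.95 and 5.62 ± 3.38 CPM in APP/PS1xRIPK1KD, 2.31 ± 1.21 and 7.44 ± 2.88 CPM in APP/PS1, and 0.642 ± 0.385 and 2.47 ± 1.67 CPM in WT libraries (SD, n = 3 each). Aqp4 ran the other way, with means of 0.098 CPM in APP/PS1xRIPK1KD, 0.033 CPM in APP/PS1 and 0.219 CPM in WT libraries. Gfap averaged 0.390, 0.600 and 0.398 CPM in these genotypes. Both were low throughout: Aqp4 was at most 0.502 CPM, in a WT library, and Gfap at most 1.23 CPM, in an APP/PS1 library. The 9 oligodendrocyte markers summed to 32.5 to 34.5 CPM in APP/PS1xRIPK1KD, 33.3 to 87.1 CPM in APP/PS1 and 29.6 to 40.5 CPM in WT libraries, and 7 of the 7 tested were above 0 in APP/PS1 against WT, 4 of them with an unadjusted p under 0.05 and 0 past FDR 0.05, with a median log2 fold change of 2.88. Choroid plexus markers (7 genes, led by Ttr) summed to 183 to 319, 70.0 to 155 and 55.9 to 90.2 CPM in the 3 genotypes. Leukocyte markers (9 genes) overlapped, at 7.06 to 9.81, 7.32 to 11.3 and 7.96 to 10.9 CPM in the same order. Neuron markers (10 genes) overlapped too, at 123 to 213, 161 to 252 and 109 to 240 CPM. APP/PS1 replicate 3, which had the most Slc1a4, also had the highest sums of all 9 libraries for several marker lists. These were the fibroblast (13.4 CPM), oligodendrocyte (87.1 CPM), microglia (108 CPM), neuron (252 CPM) and erythroid markers (6225 CPM). Its astrocyte sum, 190 CPM, was the highest too, just above the 189 CPM of WT replicate 1. The mural, choroid plexus, leukocyte and endothelial sums were highest in other libraries. Within genotypes the mural sums did not follow Slc1a4 throughout. APP/PS1 replicate 2 had the highest mural sum of its genotype, 244 CPM, and its lowest Slc1a4, 1.42 CPM. APP/PS1xRIPK1KD replicate 3 had the highest mural sum of all 9 libraries, 264 CPM, and the lowest Slc1a4 of its genotype, 1.46 CPM. In WT libraries the mural sum and Slc1a4 were both highest in replicate 1 and lowest in replicate 2. The fibroblast and astrocyte sums ranked the 3 APP/PS1 libraries in the same order as Slc1a4. In APP/PS1xRIPK1KD both of these sums were highest in replicate 3, where Slc1a4 was lowest. Among WT libraries, replicate 3 had the highest fibroblast sum and the lowest astrocyte sum. The part of these cells in the Slc1a4 difference was not tested. In bulk libraries, more cells of a type and more RNA per cell cannot be told apart.

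**Figure D2:**
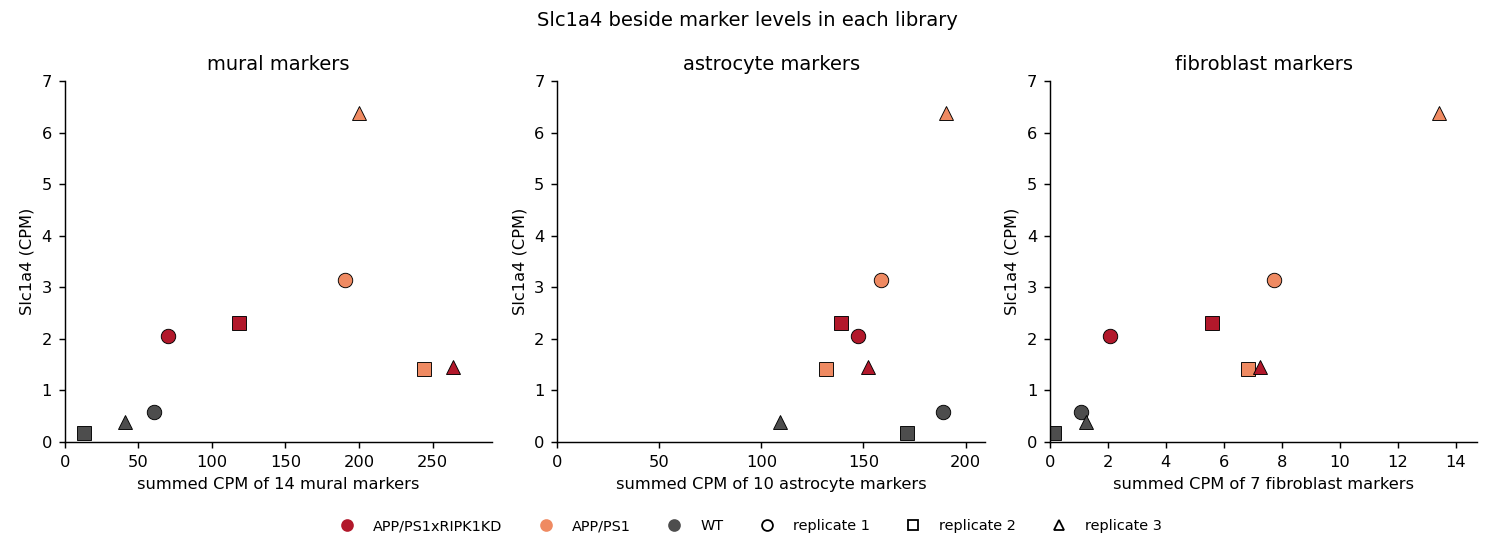
Slc1a4 in CPM (vertical axes) against the summed CPM of 14 mural, 10 astrocyte and 7 fibroblast markers (horizontal axes), 1 point per library, coloured by genotype and shaped by replicate. The 3 WT libraries lie at or below 0.590 CPM of Slc1a4 and at or below 60.5 CPM of mural and 1.24 CPM of fibroblast markers, below all 6 other libraries on each of these scales, whereas the summed astrocyte markers, led by Fgfr3, overlap between genotypes.

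The RNA of LAT1 and that of the CD98 heavy chain did not differ beyond the spread between libraries. Slc7a5 had 455, 432 and 321 CPM in APP/PS1 libraries, against 405, 673 and 350 CPM in WT libraries. WT replicate 2 was the highest of all 9, and the genotypes overlapped. For Slc7a5 the log2 fold change was -0.24 ± 0.23 (SE), with a 95% interval of -0.73 to 0.25 and an adjusted p of 0.931 in edgeR's quasi-likelihood test. Slc3a2 had 652, 733 and 728 CPM in APP/PS1 libraries, against 699, 968 and 826 CPM in WT libraries, again with WT replicate 2 highest. Its log2 fold change was -0.24 ± 0.14 (SE), its 95% interval -0.53 to 0.06 and its adjusted p 0.829.

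Among the glutamine carriers, both system N genes had lower means in APP/PS1 than in WT libraries. Slc38a3 had 257, 257 and 296 CPM in APP/PS1 libraries, against 307, 467 and 292 CPM in WT libraries, for a log2 fold change of -0.40 ± 0.20 (SE; unadjusted p = 0.0668 and adjusted p = 0.829 in edgeR's quasi-likelihood test). The 2 genotypes overlapped through APP/PS1 replicate 3, and replicates 1 and 2 only gave -0.59. Slc38a5 had 235, 233 and 201 CPM in APP/PS1 libraries, against 225, 216 and 448 CPM in WT libraries. WT replicate 3 alone made the WT mean higher: the log2 fold change was -0.41 ± 0.24 (SE, adjusted p = 0.846) with all libraries, and 0.017 without WT replicate 3. Slc38a2, the system A carrier, had 144, 119 and 94.5 CPM in APP/PS1 libraries, against 117, 120 and 93.2 CPM in WT libraries, and its log2 fold change of 0.11 ± 0.17 (SE) had an adjusted p of 0.968.

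For the cationic and taurine carriers the differences were smaller than their errors. Slc7a1 had 164, 163 and 125 CPM in APP/PS1 libraries, against 134, 203 and 107 CPM in WT libraries, with a log2 fold change of 0.03 ± 0.24 (SE) and a 95% interval of -0.50 to 0.56. Slc6a6 had 1767, 1444 and 2096 CPM in APP/PS1 libraries, against 1824, 1441 and 1611 CPM in WT libraries, with a log2 fold change of 0.12 ± 0.15 (SE) and a 95% interval of -0.20 to 0.44. The adjusted p was 0.994 for Slc7a1 and 0.948 for Slc6a6 in edgeR's quasi-likelihood test. In both genes the genotypes overlapped.

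**Figure D3:**
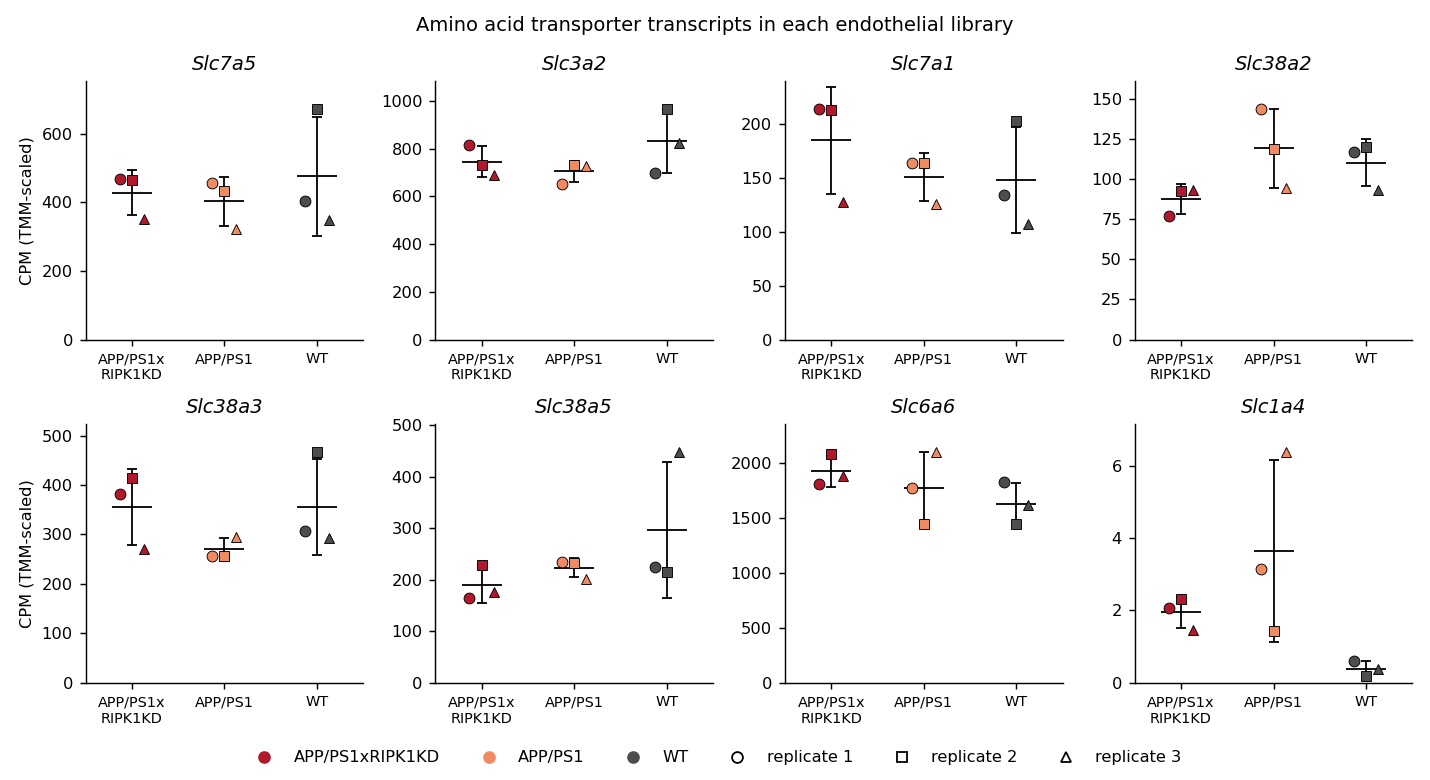
CPM of the 8 genes in each library (TMM-scaled, linear axes from 0), for APP/PS1xRIPK1KD, APP/PS1 and WT, with marker shapes for replicates 1 to 3; horizontal bars are means and whiskers SD (n = 3). The panels show the overlap of the genotypes in 6 of the 8 genes, the low APP/PS1xRIPK1KD values of Slc38a2 (76.7 to 92.9 CPM) and the low WT values of Slc1a4 (0.185 to 0.590 CPM).

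The second comparison, APP/PS1xRIPK1KD against APP/PS1, asks how the endothelium of the amyloid model differs with and without RIPK1KD. Of the 8 genes 0 passed FDR 0.05 by the quasi-likelihood test, against 0.00751% of all genes (1 gene), and 0 passed by DESeq2, which called 0.151% of all genes. Slc38a2 was the 1 member with an unadjusted p under 0.05, against 4.78% of all genes, and the 1 member with libraries that did not overlap, against 9.98%. The median log2 fold change was 0.08 over the 8 genes and -0.0034 over all genes.

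Slc38a2, the starvation-induced system A carrier, had 76.7, 92.6 and 92.9 CPM in APP/PS1xRIPK1KD libraries, against 144, 119 and 94.5 CPM in APP/PS1 libraries. All 3 APP/PS1xRIPK1KD libraries were below all 3 APP/PS1 libraries, the nearest pair being the replicate 3 libraries of both genotypes. Its log2 fold change was -0.45 ± 0.17 (SE), a 1.36-fold lower level with a 95% interval of -0.81 to -0.08, and the adjusted p was 0.980 in edgeR's quasi-likelihood test (unadjusted p = 0.0215). It kept its sign when each library was left out, between -0.59 and -0.29, and was -0.63 with replicates 1 and 2 only.

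Slc38a3 had 383, 415 and 270 CPM in APP/PS1xRIPK1KD libraries, against 257, 257 and 296 CPM in APP/PS1 libraries. Replicates 1 and 2 of APP/PS1xRIPK1KD were the high ones and replicate 3 lay among the APP/PS1 values, so the genotypes overlapped. Between the genotypes the log2 fold change was 0.40 ± 0.20 (SE; adjusted p = 1.00 in edgeR's quasi-likelihood test, unadjusted p = 0.0659), and 0.63 with replicates 1 and 2 only. The related Slc38a5 had 164, 228 and 176 CPM in APP/PS1xRIPK1KD libraries, against 235, 233 and 201 CPM in APP/PS1 libraries, with a log2 fold change of -0.24 ± 0.24 (SE). These 2 carriers share substrates, and their fold changes had opposite signs in this comparison; whether the fold changes differ from each other was not tested.

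The remaining members overlapped between the 2 genotypes. Slc7a5 had 467, 464 and 353 CPM in APP/PS1xRIPK1KD libraries, against 455, 432 and 321 CPM in APP/PS1 libraries, with a log2 fold change of 0.09 ± 0.23 (SE) and a 95% interval of -0.40 to 0.58. Slc3a2 had 816, 731 and 690 CPM, against 652, 733 and 728 CPM, with a log2 fold change of 0.08 ± 0.14 (SE) and an interval of -0.21 to 0.38. The RNA of each chain of the heterodimer thus had a difference smaller than its error. Slc7a1 had 214, 213 and 128 CPM in APP/PS1xRIPK1KD libraries, against 164, 163 and 125 CPM in APP/PS1 libraries (log2 fold change 0.29 ± 0.24, SE). Slc6a6 had 1804, 2077 and 1876 CPM, against 1767, 1444 and 2096 CPM (0.12 ± 0.15, SE). Slc1a4 had 2.06, 2.30 and 1.46 CPM in APP/PS1xRIPK1KD libraries, against 3.15, 1.42 and 6.38 CPM in APP/PS1 libraries, and its log2 fold change of -0.91 ± 0.74 (SE) moved to -0.06 with replicates 1 and 2 only.

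The third comparison sets APP/PS1xRIPK1KD against WT and shares its APP/PS1xRIPK1KD and WT libraries with the first 2. Of the 8 genes 0 passed FDR 0.05 by the quasi-likelihood test, against 0.0375% of all genes (5 genes), and 0 by DESeq2, which called 0.475% of all genes. At an unadjusted p of 0.05, 2 of the 8 passed, Slc1a4 and Slc38a5, against 6.18% of all genes. Libraries did not overlap for 2 of the 8, Slc1a4 and Slc38a2, against 12% of all genes. The median log2 fold change was -0.08 over the 8 genes and 0.0031 over all genes.

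Slc1a4 had 101, 101 and 81 counts in APP/PS1xRIPK1KD libraries, against 20, 7 and 18 counts in WT libraries, or 2.06, 2.30 and 1.46 CPM against 0.590, 0.185 and 0.385 CPM. The APP/PS1xRIPK1KD libraries were closer to each other than those of APP/PS1 and all above WT. The log2 fold change was 2.32 ± 0.78 (SE), a 5.00-fold difference, with an adjusted p of 0.662 in edgeR's quasi-likelihood test (unadjusted p = 0.0115) and 0.171 in DESeq2. With replicates 1 and 2 only it was 2.49. The mural, fibroblast and choroid plexus sums given above were higher in these libraries too.

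Slc38a5 had 164, 228 and 176 CPM in APP/PS1xRIPK1KD libraries, against 225, 216 and 448 CPM in WT libraries. The genotypes overlapped, and the size of the difference rested on WT replicate 3. The log2 fold change was -0.65 ± 0.25 (SE; adjusted p = 0.715 in edgeR's quasi-likelihood test, unadjusted p = 0.0214), and it was -0.22 without WT replicate 3 and -0.17 with replicates 1 and 2 only. Slc38a2 had 76.7, 92.6 and 92.9 CPM in APP/PS1xRIPK1KD libraries, against 117, 120 and 93.2 CPM in WT libraries. The libraries did not overlap, with the replicate 3 libraries again nearly equal. Here the log2 fold change was -0.33 ± 0.17 (SE, adjusted p = 0.866 in edgeR's quasi-likelihood test, unadjusted p = 0.0719), and -0.49 with replicates 1 and 2 only. The size of the Slc38a2 differences depended on the scaling. Without a scaling factor the value was -0.10 against WT and -0.39 against APP/PS1.

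Slc38a3 had the same mean in both genotypes, 356 ± 76.2 CPM in APP/PS1xRIPK1KD and 355 ± 96.9 CPM in WT libraries (SD, n = 3 each), with a log2 fold change of 0.0014 ± 0.20 (SE) and a 95% interval of -0.43 to 0.43. Slc7a5 averaged 428 ± 65.1 and 476 ± 173 CPM in these genotypes, with a log2 fold change of -0.15 ± 0.23 (SE). Slc3a2 averaged 746 ± 64.0 CPM in APP/PS1xRIPK1KD and 831 ± 134 CPM in WT libraries, with a log2 fold change of -0.16 ± 0.14 (SE). The signs of these 2 values depended on the scaling: without a scaling factor, which moved the median of all genes to 0.23, they were 0.07 and 0.06. Slc7a1 averaged 185 ± 49.5 CPM in APP/PS1xRIPK1KD and 148 ± 49.5 CPM in WT libraries (0.32 ± 0.24, SE). Slc6a6 averaged 1919 ± 141 CPM in APP/PS1xRIPK1KD and 1625 ± 192 CPM in WT libraries (0.24 ± 0.15, SE). The lowest adjusted p of these 5 genes in edgeR's quasi-likelihood test was the 0.902 of Slc6a6.

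**Figure D4:**
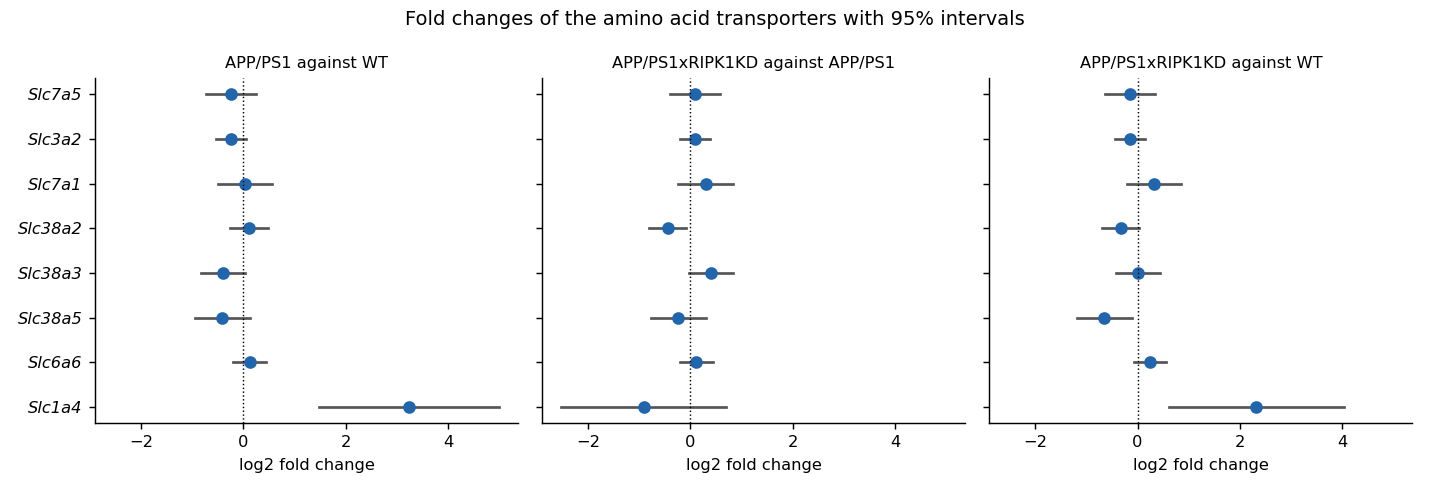
Log2 fold changes of the 8 genes in the 3 comparisons (points) with 95% intervals from edgeR's quasi-likelihood fit (lines); the dotted line marks 0 and positive values mean higher in the genotype named first. All intervals cross 0 except those of Slc38a2 (in the second panel), Slc38a5 (in the third panel) and Slc1a4 (in the first and the third panel); these intervals are not adjusted for the number of genes.

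The balance between the RNA of the heavy chain and that of LAT1 was examined within each library. The ratio of Slc3a2 to Slc7a5 per kilobase was 2.03, 1.83 and 2.28 in APP/PS1xRIPK1KD, 1.67, 1.97 and 2.64 in APP/PS1, and 2.01, 1.67 and 2.75 in WT libraries. The heavy chain exceeded the light chain in 9 of 9 libraries, and the ratio was highest in the replicate 3 library of every genotype. Its mean was 2.05 ± 0.222 in APP/PS1xRIPK1KD, 2.09 ± 0.496 in APP/PS1 and 2.14 ± 0.549 in WT libraries (SD, n = 3 each). Two-sided exact permutation tests on the log2 ratio gave p = 0.7 for APP/PS1 against WT, p = 1.0 for APP/PS1xRIPK1KD against APP/PS1 and p = 1.0 for APP/PS1xRIPK1KD against WT, where 3 libraries against 3 cannot give a p below 0.1.

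The levels of both chains were compared over the 9 libraries. Pearson's r of log2(CPM + 1) was 0.577 (p = 0.106) and Spearman's rho 0.35 (p = 0.359), by exact two-sided permutation over pairings. With the mean of each replicate number subtracted r was 0.752 (n = 9). No p is given for it, because values centred in this way cannot be permuted freely over the 9 libraries. The replicate 3 libraries differ from the others in Xist and Y-linked RNA in every genotype. The pooled relation rested on WT replicate 2, in which both genes were highest: r was -0.076 without it, and -0.12 without the 2 libraries farthest from the median of Slc7a5, WT replicate 2 and APP/PS1 replicate 3. Within replicates 1 and 2 of the 3 genotypes r was 0.867 (exact permutation p = 0.0389, n = 6) and rho 0.714 (exact permutation p = 0.136). These 6 libraries include WT replicate 2, and a value without it was not computed. The replicate 3 libraries alone are too few for a value. The relation of Slc7a5 with Slc3a2 was the only one tested across libraries.

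Among all 28 pairs of the 8 genes, given as a description over libraries that share their genotypes and scaling, Slc7a5 with Slc7a1 had the highest Pearson r, 0.804, and Slc3a2 with Slc1a4 the lowest, -0.56. Slc7a5 and Slc7a1, carriers of large neutral and of cationic amino acids, were lowest in the replicate 3 library in 3 of 3 genotypes, and Slc38a2 and Slc38a3 in 2 of 3. Slc6a6 was lowest there in 0 of 3. Replicate 3 libraries also differed in Xist and Y-linked RNA, as given above, and the part of that difference in the levels of Slc7a5 and Slc7a1 was not tested.

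**Figure D5:**
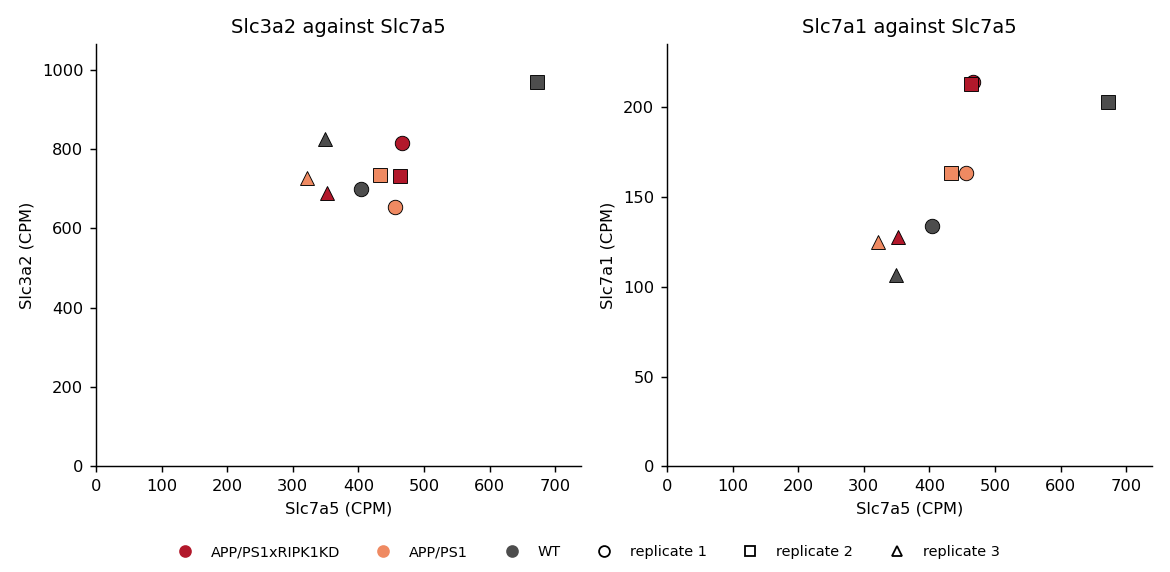
Slc3a2 (left) and Slc7a1 (right) against Slc7a5, all in CPM on linear axes from 0, 1 point per library, coloured by genotype and shaped by replicate. The replicate 3 libraries (triangles) hold the 3 lowest Slc7a5 values, 321 to 353 CPM, and, in the right panel, the lowest Slc7a1 value of each genotype; WT replicate 2 lies far right at 673 CPM of Slc7a5.

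The genes whose levels ran most like each member over the 9 libraries were looked up among 9725 other genes of at least 5 CPM on average (9726 for Slc1a4). For Slc7a5 they were Abcg1, a sterol exporter (r = 0.971), and Slc35f2 (r = 0.906). For Slc7a1 they were Gm19757 (r = 0.943) and Slc16a1, the lactate carrier MCT1 of the barrier (r = 0.927). Slc38a2 ran with Socs5 (r = 0.960) and with Pdpk1, a kinase upstream of AKT (r = 0.958). Slc3a2 ran with Gm9159 (r = 0.936) and Ifi35 (r = 0.913), Slc38a3 with Fam189a2 (r = 0.947) and Bbs2 (r = 0.944), Slc6a6 with Ap2a2, an adaptor subunit of clathrin-coated vesicles (r = 0.970), and Mtmr11 (r = 0.921), and Slc1a4 with Repin1 (r = 0.963) and Golt1b (r = 0.915).

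For Slc38a5 the likeness came from 1 library. Its nearest genes were Lcn2, an acute phase protein (r = 0.926), and Zbp1, an interferon-induced nucleic acid sensor (r = 0.925). In WT replicate 3, where Slc38a5 was highest at 448 CPM, Lcn2 was at 110 CPM and Zbp1 at 47.3 CPM, whereas in the other 8 libraries Lcn2 lay between 1.59 and 8.56 CPM and Zbp1 between 4.49 and 9.77 CPM. Without that library r was 0.557 for Lcn2 and 0.535 for Zbp1. For the pairs of the other 7 members, r without the member's most extreme library was lowest for Slc1a4 with Golt1b, at 0.845. All these genes were picked for the highest r in the same 9 libraries, so values without 1 library cannot tell likeness from chance. Whether any of these r exceeds what chance gives among so many genes was not tested.

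None of the other amino acid carriers passed the quasi-likelihood test either. Of the 46 listed, 30 were tested, and 0 passed FDR 0.05 in each of the 3 comparisons. At an unadjusted p of 0.05 there were 3 in APP/PS1 against WT, all higher, 3 in APP/PS1xRIPK1KD against APP/PS1, all lower, and 0 in APP/PS1xRIPK1KD against WT, where 6.14%, 4.78% and 6.18% of all genes had such a p. Their median log2 fold change was 0.16, 0.0050 and 0.24 in these comparisons, where that of all genes was 0.0019, -0.0034 and 0.0031. Slc1a3, the astrocyte glutamate carrier GLAST, had 6.80, 4.94 and 10.6 CPM in APP/PS1 libraries, against 3.63, 3.22 and 0.556 CPM in WT libraries, with a log2 fold change of 1.60 ± 0.66 (SE; adjusted p = 0.795 in edgeR's quasi-likelihood test). In APP/PS1xRIPK1KD against WT its log2 fold change was 1.19 ± 0.66 (SE; adjusted p = 0.879). With replicates 1 and 2 only these values were 0.77 and 0.78.

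Slc38a10 had 114, 91.2 and 74.4 CPM in APP/PS1xRIPK1KD, 66.4, 47.9 and 93.5 CPM in APP/PS1 and 110, 102 and 71.8 CPM in WT libraries. Its log2 fold change was -0.45 ± 0.24 (SE) in APP/PS1 against WT and 0.43 ± 0.24 (SE) in APP/PS1xRIPK1KD against APP/PS1, with adjusted p of 0.829 and 1.00 in edgeR's quasi-likelihood test. APP/PS1 replicate 3 was the high library of its genotype: without it the values were -0.73 and 0.71, without APP/PS1 replicate 2 they were -0.24 and 0.23, and with replicates 1 and 2 only they were -0.90 (adjusted p = 0.209) and 0.85 (adjusted p = 0.414). Slc36a1, a proton-coupled carrier of lysosomes, had 25.3, 23.8 and 14.8 CPM in APP/PS1xRIPK1KD, 11.8, 17.1 and 15 CPM in APP/PS1 and 11.2, 22.5 and 12.3 CPM in WT libraries, with overlap between all genotypes. Slc38a11 is named because edgeR's exact test and likelihood ratio test called it in APP/PS1 against WT, which was seen after its values. It was at 0 in all 3 WT libraries and had 13 to 66 counts, or 1.01, 1.23 and 0.258 CPM, in APP/PS1 libraries. Against a floor of 3 counts per WT library its mean was at least 10.8-fold higher in APP/PS1. In APP/PS1xRIPK1KD libraries it had 0 to 15 counts. Its adjusted p was 0.0139 in the exact test, 0.00223 in the likelihood ratio test and 0.787 in the quasi-likelihood test. It passed the filter of the exact and likelihood ratio tests only through the APP/PS1 libraries in which it was high. These calls therefore add no support beyond the counts themselves.

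Genes that sense or answer amino acid supply were taken from 3 lists, and none of their members passed FDR 0.05 in any of the 3 comparisons by the quasi-likelihood test or DESeq2. In the ATF4 response list 23 of 25 genes were tested. At an unadjusted p of 0.05 it had 1 gene in APP/PS1 against WT, 3 in APP/PS1xRIPK1KD against APP/PS1 and 1 in APP/PS1xRIPK1KD against WT, beside 6.14%, 4.78% and 6.18% of all genes. Aars, which charges alanine onto its tRNA, had 61.5, 72.2 and 56.8 CPM in APP/PS1xRIPK1KD libraries, against 52.3, 41.9 and 53.6 CPM in APP/PS1 and 48.5, 37.5 and 48.1 CPM in WT libraries. Its APP/PS1xRIPK1KD libraries were above all 6 others, and the log2 fold change against WT was 0.51 ± 0.17 (SE; adjusted p = 0.651 in edgeR's quasi-likelihood test). Of the 23 genes 5 had a log2 fold change above 0 in this comparison, beside 50.6% of all genes, and the median of the list was -0.15. The tryptophan counterpart Wars had log2 fold changes of -0.52 ± 0.26 (SE) in APP/PS1 against WT and -0.54 ± 0.26 (SE) in APP/PS1xRIPK1KD against WT. It had 119, 80.8 and 75.5 CPM in APP/PS1xRIPK1KD, 88.4, 79.5 and 112 CPM in APP/PS1 and 112, 92.4 and 196 CPM in WT libraries. Both values rested on WT replicate 3, without which they were -0.13 and -0.15.

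The list of mTORC1 amino acid sensing had 24 of 24 genes tested, with 1, 1 and 3 at an unadjusted p of 0.05 in the 3 comparisons in the order given above, again beside 6.14%, 4.78% and 6.18% of all genes. Gatsl3, an older symbol of the arginine sensor Castor1, had 96.0, 75.2 and 94.5 CPM in APP/PS1xRIPK1KD, 94.4, 127 and 144 CPM in APP/PS1 and 153, 184 and 107 CPM in WT libraries. The APP/PS1xRIPK1KD and WT libraries did not overlap, and the log2 fold change was -0.74 ± 0.21 (SE; adjusted p = 0.563 in edgeR's quasi-likelihood test and 0.094 in DESeq2). Sesn1, which encodes a sestrin of the leucine sensing branch, had 128, 105 and 96.2 CPM in APP/PS1xRIPK1KD, 132, 135 and 99.8 CPM in APP/PS1 and 187, 213 and 107 CPM in WT libraries. Its log2 fold change was -0.62 ± 0.23 (SE; adjusted p = 0.690) in APP/PS1xRIPK1KD against WT and -0.47 ± 0.23 (SE; adjusted p = 0.829) in APP/PS1 against WT, and the genotypes overlapped through WT replicate 3. Flcn, the folliculin of the lysosomal branch, and Rheb, the direct activator of mTORC1, had log2 fold changes of -0.35 ± 0.18 (SE, APP/PS1 against WT) and -0.28 ± 0.16 (SE, APP/PS1xRIPK1KD against APP/PS1). With replicates 1 and 2 only these were -0.56 and -0.50, and that of Rheb was -0.15 without APP/PS1 replicate 2.

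Of the 18 genes of amino acid use 17 were tested, with 2, 0 and 0 at an unadjusted p of 0.05, beside the same shares of all genes. Glul, which makes glutamine, the substrate of the SNAT carriers, had 252, 271 and 334 CPM in APP/PS1 libraries, against 402, 318 and 367 CPM in WT libraries, with a log2 fold change of -0.34 ± 0.14 (SE; adjusted p = 0.795 in edgeR's quasi-likelihood test). The APP/PS1xRIPK1KD libraries had 320, 294 and 320 CPM, with a mean between those of the other genotypes. Asl, which releases arginine from argininosuccinate, averaged 24.2 ± 4.62 CPM in APP/PS1 and 17.5 ± 1.93 CPM in WT libraries (SD, n = 3 each; log2 fold change 0.47 ± 0.22, SE, adjusted p = 0.805 in edgeR's quasi-likelihood test). Odc1, which turns ornithine into putrescine, averaged 10.1 ± 2.86 CPM in APP/PS1xRIPK1KD and 15.6 ± 1.34 CPM in APP/PS1 libraries (-0.63 ± 0.31, SE, adjusted p = 1.00). In the ATF4 response list, Eif2ak4, the GCN2 kinase that senses uncharged tRNA, averaged 29.3 ± 3.25 CPM in APP/PS1 and 36.1 ± 5.49 CPM in WT libraries without overlap (-0.30 ± 0.18, SE, adjusted p = 0.837). Cebpg, a dimer partner of ATF4, averaged 40.7 ± 7.58 CPM in APP/PS1xRIPK1KD and 58.2 ± 17.6 CPM in APP/PS1 libraries (-0.51 ± 0.21, SE, adjusted p = 0.994), and its value was -0.22 without APP/PS1 replicate 2.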

How the data were processed

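The authors deposited 1 matrix of RSEM expected counts per gene for all 9 libraries, which holds fractions (28.3% of values differ from a whole number by more than 1e-06), and 1 table of their own edgeR comparison of APP/PS1 against WT, with log2 fold changes, p-values and FDR, per the file headers. The submitters' processing notes name Bowtie 0.12.2, RSEM, edgeR 3.10.2 and the builds mm10 and GRCm38. Libraries were made by Smart-seq2 from an oligo(dT) primer, per the labels' protocols, so neither strand nor molecule is marked. RSEM splits reads among related genes.

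Expected counts were rounded and kept by filterByExpr (minimum count 10, minimum total 15), scaled by TMM, and tested by 2-sided edgeR 4.0.16 quasi-likelihood tests (robust) on all 9 libraries, without a replicate block, with Benjamini-Hochberg adjustment over the 13317 genes tested. Analyses used R 4.3.3 and Python 3.11.15. CPM are TMM-scaled. Levels per kilobase used the exon union of each gene in GENCODE M21 and take coverage to be even along it. DESeq2 1.42.0 and limma 3.58.1 (voom) were alternatives. An adjusted p printed as 1.00 is rounded. The fits were tested on simulated data. The members and gene lists were chosen with earlier results of these data known. All 8 members are described; of each other list, genes past FDR 0.05 are named, or else the 2 with the smallest p of at least 5 CPM on average, with the 5 most abundant other carriers and, for each member, the 2 genes with the highest Pearson r of log2(CPM + 1). A gene that this rule names is not reported here. Of each marker list the text names genes used to define the cell type, chosen after their values were seen. Replicate numbers come from the sample titles. Replicates of a genotype differed by more than sampling noise (chi-square per degree of freedom 55.7 to 328). Each label names 1 mouse per sample.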

Additional observations from a re-analysis of the deposited data

How the results depend on the processing

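With 3 libraries a genotype, differences as small as those of most members could not be resolved, and Slc1a4 rests on 7 to 321 counts. No alternative fit of edgeR or limma called a member. DESeq2 called 1 member (Slc1a4, APP/PS1 against WT, 3.25), and the exact test and the likelihood ratio test each called 1 other carrier there. Over all genes, the quasi-likelihood, DESeq2, exact and likelihood ratio tests called 3, 45, 44 and 50 genes in APP/PS1 against WT, 1, 20, 32 and 35 in APP/PS1xRIPK1KD against APP/PS1, and 5, 63, 72 and 74 in APP/PS1xRIPK1KD against WT; limma-voom called 2, 0 and 2, and a fit without the filter 7, 1 and 14. In APP/PS1xRIPK1KD against WT the count was 3 with the 6 libraries alone, 8 with upper-quartile scaling and 8 with replicates 1 and 2 only; in APP/PS1xRIPK1KD against APP/PS1 the last gave 0. Without a scaling factor APP/PS1 against WT had 5. Leaving out 1 library gave 1 to 5, 0 to 4 and 2 to 9 genes.

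Log2 fold changes that turned their sign were small. With replicates 1 and 2 only, APP/PS1 against WT gave -0.041 for Slc7a1, 0.085 for Slc38a5 and -0.025 for Slc6a6, and the log2 Slc3a2 to Slc7a5 ratio gave 0.090 and 0.074 for APP/PS1xRIPK1KD against APP/PS1 and WT. Without a scaling factor APP/PS1xRIPK1KD against WT gave 0.072 for Slc7a5, 0.062 for Slc3a2 and 0.0042 for Glul, and the log2 difference of the summed level was 0.021 in APP/PS1 against WT (-0.15 with TMM) and 0.16 in APP/PS1xRIPK1KD against WT (-0.065 with TMM); this setting moved the median of all genes by 0.17 and 0.23. Leaving out each library gave ranges in APP/PS1 against WT of -0.42 to 0.095 for Slc7a5, -0.16 to 0.33 for Slc7a1, -0.044 to 0.25 for Slc38a2, -0.59 to 0.017 for Slc38a5 and -0.019 to 0.25 for Slc6a6; of -0.051 to 0.21 for Slc7a5 in APP/PS1xRIPK1KD against APP/PS1; and of -0.33 to 0.18 for Slc7a5 and -0.12 to 0.25 for Slc38a3 in APP/PS1xRIPK1KD against WT. The log2 ratio ranged over -0.21 to 0.16 in APP/PS1 against WT, -0.16 to 0.17 in APP/PS1xRIPK1KD against APP/PS1 and -0.20 to 0.15 in APP/PS1xRIPK1KD against WT, the summed level over -0.13 to 0.0029 in the last, and the correlation of Slc7a5 with Slc3a2 over -0.076 to 0.742. The causes of these shifts were not tested.

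With the replicate number as a block, 0 members were called in each comparison, and the counts over all genes were 2, 0 and 0. Slc1a4 in APP/PS1 against WT then had 3.18 (adjusted p = 0.921 in edgeR's quasi-likelihood test). The Slc7a5 and Slc3a2 correlation was 0.752 with the mean of each replicate number subtracted (n = 9, against 0.577 without), and 0.867 with replicates 1 and 2 only. Both settings keep WT replicate 2, on which the pooled relation rested. The sample titles do not say that same-numbered samples are pairs. Deviations of same-numbered samples correlated by -0.065 to 0.208 over 9726 genes, and not every sample correlated best with its own number. APP/PS1xRIPK1KD replicate 3 did so against APP/PS1 (0.113) and against WT (0.208). The replicate 3 libraries share their Xist and Y-linked pattern, so these values cannot settle whether the numbers mark a shared factor.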
